A study of Mus musculus with 6 samples.

Results

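Titin and 8 proteins anchored at the ends and the middle of the sarcomere were examined in 6 mouse tissues by Ribo-seq, which sequences the pieces of mRNA that ribosomes shield from nuclease. The mRNAs were those of Ttn, Nebl, Myom1, Myom2, Actn2, Tcap, Ldb3, Csrp3 and Myoz2, chosen by gene symbol through their Ensembl gene identifiers, and they make up 9 of the 18437 mRNAs listed in any library. All 9 were found, and no filter on low values was set for their levels. The samples were heart, lung, kidney, brain, small intestine and colon of wild-type C57BL/6J mice at 4 weeks of age without treatment, with 1 library for each tissue. The number of animals behind a library is not given in the sources used here. The values are ribosome densities in RPKM, that is reads per kilobase of coding sequence (CDS), scaled to the total of CDS reads in the library. Every deposited value was a whole multiple of the density of 1 read, so the reads behind each value could be recovered, and they summed to between 4504853 and 10635031 per library.

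Since each tissue had a single library, differences have no replicate check and none was tested. Intervals below are 95% intervals of counting, exact Poisson for a density, Wilson for a share and exact conditional binomial for a ratio. Without molecular identifiers in the reads they cover counting error only, and say nothing of the spread between animals. In such bulk libraries, fewer cells of a type, less RNA per cell and fewer ribosomes per mRNA cannot be told apart.

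The labels of 4 libraries went against their tissue markers, and libraries are therefore named by their labels throughout. The 6 cardiomyocyte markers lay between 163 and 24269 RPKM in the heart-labelled library, and the 3 lung markers summed to 60275 RPKM in the lung-labelled library. The sum of 3 brain markers was 3049 RPKM under the label small intestine and 11.9 RPKM under the label brain, and that of 3 kidney markers 18523 RPKM under the label colon and 15.8 RPKM under the label kidney. Small intestine markers came to 28167 RPKM under the label brain (351 under their own), and colon markers to 3288 RPKM under the label kidney (1.72 under their own). The comparisons of heart with the other 5 libraries do not depend on which of those 5 carries which name.

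The sarcomere is the repeating contractile unit of striated muscle. At each end, the Z-disc crosslinks actin filaments of neighbouring sarcomeres through α-actinin and holds the N-terminus of titin, while in the middle the M-band crosslinks myosin filaments through myomesins and holds the titin C-terminus. A single titin molecule spans the distance between these structures and acts as a spring and a ruler for the thick filament. Smooth muscle has dense bodies in place of Z-discs, and non-muscle cells use other α-actinins, so the proteins examined here are mostly known from heart and skeletal muscle.

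Promoters from RefSeq (build GRCm38.p6) were found for 7 of the 9 genes, 12 promoters in all, and none for Tcap and Myom2. The 250 bases before each start were searched on both strands for the MEF2 site, the CArG box of serum response factor, the MCAT element CATTCC and the E-box CANNTG, all known from muscle promoters. A MEF2 site was found in those of Ttn and Myoz2 and in 0.508% of the 32851 promoters of the table, a CArG box in those of Myom1 and Ldb3 and in 1 promoter of Nebl (1.47% of all), an MCAT element in another promoter of Nebl (12.6% of all), and E-boxes, which 66.2% of all held, in 6 of the 7 genes. A match is only a run of letters in this window, and binding was not measured. The stretches with the MEF2 site, in capitals, are shown because both genes were among those at least 10-fold higher in heart. They lie on the minus strand of GRCm39 at chr2:76812892-76813141 for Ttn, where the site runs from base -166 to -157, and at chr3:122828660-122828886 for Myoz2, where it runs from -33 to -24 and the 227 bases end with it. The RefSeq start of Myoz2 lies 28 bases into the annotated transcript, which begins at 122828664, so the end of its site falls within that transcript. Neither site overlapped another of the motifs searched. Other promoters also lay away from the start of the annotated transcript. The RefSeq starts of Ldb3 lie 337 and 411 bases into it, and that of Actn2 430 bases. Their 250-base windows, with the CArG boxes of Ldb3 and the E-boxes of Actn2, are thus not upstream of these transcripts. For the Nebl promoter with the MCAT element, the RefSeq start is at -209233 bases from that of the transcript.
Ttn: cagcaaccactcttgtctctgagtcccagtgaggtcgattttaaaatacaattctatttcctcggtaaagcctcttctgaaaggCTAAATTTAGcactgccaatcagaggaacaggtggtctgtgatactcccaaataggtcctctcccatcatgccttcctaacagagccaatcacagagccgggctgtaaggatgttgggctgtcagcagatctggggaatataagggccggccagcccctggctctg
Myoz2: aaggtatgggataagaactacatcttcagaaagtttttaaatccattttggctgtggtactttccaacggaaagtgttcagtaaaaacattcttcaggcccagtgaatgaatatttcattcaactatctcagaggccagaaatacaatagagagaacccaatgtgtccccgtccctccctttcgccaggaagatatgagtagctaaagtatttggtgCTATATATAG

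All 9 mRNAs had their highest ribosome density in the heart-labelled library, where 12.9% of the 15238 mRNAs tested were highest. Of the 9, 7 were at least 10-fold denser there than in the highest of the other 5 libraries, a ratio reached by 1.06% of these mRNAs. Both shares were counted over mRNAs with at least 1 RPKM in at least 1 library, and a value of 0 reads was set at 3 reads. The median ratio over the 9 was 80.8, and over all mRNAs tested 0.255. Nebl and Ldb3 were the 2 below 10-fold. These mRNAs are known from striated muscle, so the counts describe a set chosen for its function and are not a sign of anything particular to it.

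**Figure D1:**
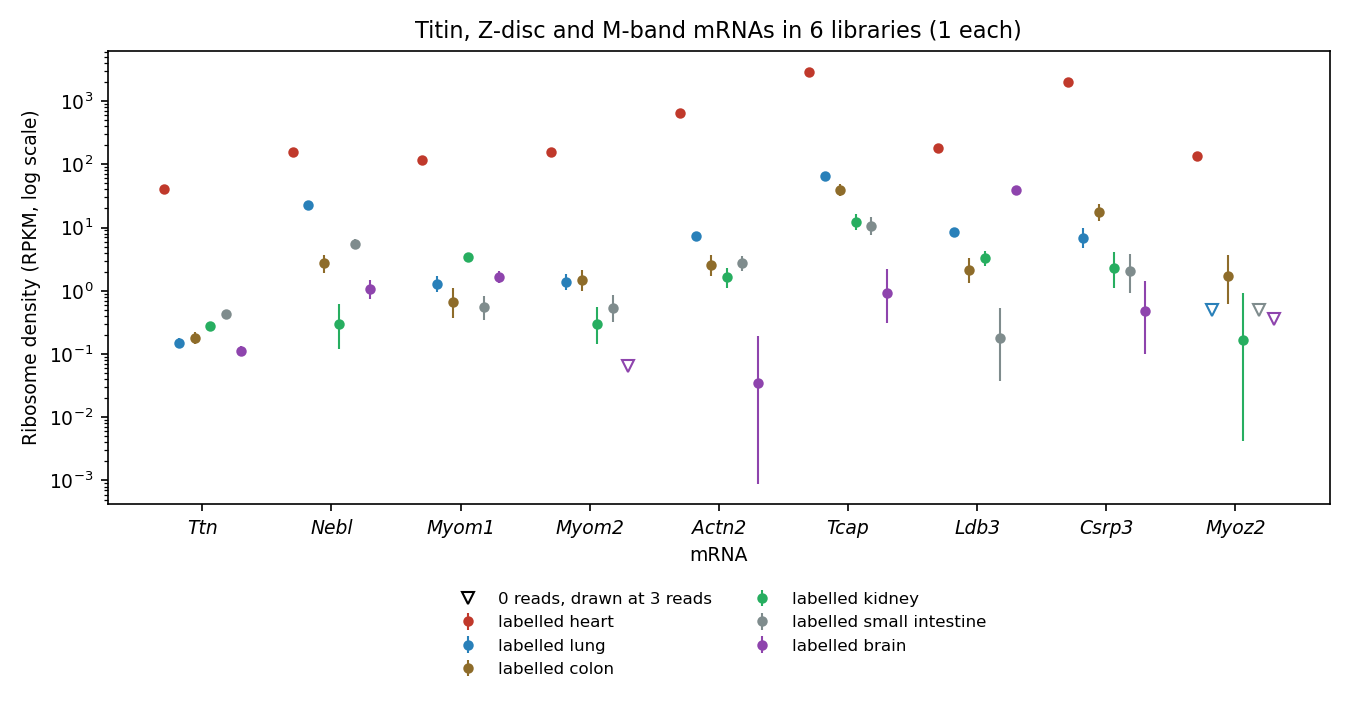
Ribosome density (RPKM, log scale) of the 9 mRNAs in the 6 libraries, 1 library each, with 95% Poisson intervals of the reads; open triangles mark 0 reads and are drawn at the density of 3 reads. The heart-labelled library is highest for each mRNA, from 41.2 RPKM for Ttn to 2895 RPKM for Tcap, and the nearest other library is the lung-labelled one for Nebl (22.6 RPKM) and the brain-labelled one for Ldb3 (38.8 RPKM).

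Ttn, on the minus strand at chr2:76534136-76812891 (GRCm39), encodes titin and has the longest CDS listed, with 106170 bases in 346 coding exons. Its density was 41.2 RPKM in the heart-labelled library (35778 reads, 40.8 to 41.6 RPKM), 0.430 in that labelled small intestine (349 reads), 0.273 in kidney (220), 0.178 in colon (85), 0.149 in lung (122) and 0.112 in brain (127). Heart stood far above the others, and the 5 lower values lay between 0.112 and 0.430 RPKM. Among these, small intestine was apart from kidney and kidney from colon, while colon and lung, and lung and brain, had overlapping intervals. The ratio of heart to the next library was 95.8 (86.2 to 106.7), and 29.5 when 1 RPKM was added to both values. Even the brain-labelled library, the lowest, had 127 titin reads, since the long CDS gives a density from 1 read of only 0.000886 RPKM there.

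Reads that mapped to more than 1 place were excluded by the authors, which bears on repeats. In the titin CDS, 1001 of 106145 windows of 29 bases (0.943%) occurred more than once, all of them within titin itself, so the exclusion touches a small share of this CDS. The longest repeat was 423 bases, from base 35497 to 35919 of the CDS (coding exons 165 to 170, chr2:76662512-76663443) and again from 36865 to 37287 (exons 182 to 187, chr2:76658730-76659660). Its first 60 bases are shown in capitals after the 15 bases before them, as a stretch where a footprint cannot be placed.
Ttn from CDS base 35497: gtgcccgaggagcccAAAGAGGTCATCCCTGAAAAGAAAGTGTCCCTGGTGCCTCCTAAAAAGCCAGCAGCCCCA
Ttn from CDS base 36865: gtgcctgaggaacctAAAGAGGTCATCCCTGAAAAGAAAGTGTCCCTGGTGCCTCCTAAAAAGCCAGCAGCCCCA

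Among the Z-disc proteins, Actn2, the muscle α-actinin that crosslinks actin filaments, lies at chr13:12281303-12356693 on the minus strand and has a CDS of 2682 bases. Its density was 651 RPKM in heart (14277 reads), 7.28 in the lung-labelled library (151), 2.73 in small intestine (56), 2.57 in colon (31), 1.62 in kidney (33) and 0.0351 in brain, where a single read was found. Heart was 89.3 times the lung-labelled library (76.1 to 106), and 238 times the next one without that library. The libraries labelled small intestine, colon and kidney had intervals that overlapped from each to the next. Actn2 was the 1 other mRNA of the 9 with repeated windows, 43 of them (1.62%), shared with Actn1, Actn3 and Actn4. A stretch of 38 bases identical to the ubiquitous paralog Actn1 (capitals), where reads of the pair could not be told apart and were dropped, lies at base 997 of the Actn2 CDS (exon 10, chr13:12306619-12306656) and base 976 of that of Actn1 (chr12:80230240-80230277).
Actn2: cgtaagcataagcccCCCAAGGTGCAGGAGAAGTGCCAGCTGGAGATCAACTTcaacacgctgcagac
Actn1: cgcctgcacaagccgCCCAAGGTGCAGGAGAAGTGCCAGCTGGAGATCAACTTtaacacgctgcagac

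Tcap, or telethonin, caps the N-terminus of a pair of titin molecules at the Z-disc. It has the shortest CDS of the 9, with 501 bases, and lies at chr11:98274637-98275779. Its density was the highest of the 9 in every library except that labelled brain, with 2895 RPKM in heart (11870 reads), 66.1 in lung (256), 39.9 in colon (90), 12.4 in kidney (47), 10.7 in small intestine (41) and 0.938 in brain (5). Heart was 43.8 times lung (38.7 to 49.8) and 72.6 times the next library without it, and the intervals of all neighbours in this order were apart except those of kidney and small intestine.

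Csrp3 encodes the muscle LIM protein of the Z-disc. The CDS has 582 bases and the gene lies at chr7:48480142-48497901. It had 1999 RPKM in heart (9518 reads), 17.5 in colon (46), 6.89 in lung (31), 2.27 in kidney (10), 2.02 in small intestine (9) and 0.485 in brain (3). The ratio of heart to the colon-labelled library was 114 (85.3 to 156), an interval that overlapped those of Myom2, Ttn, Actn2 and Myoz2, and the 3 lowest libraries rested on at most 10 reads each.

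Myoz2 (calsarcin-1), which links α-actinin to calcineurin, had the lowest read count in heart. Its gene lies at chr3:122797610-122828664 and its CDS has 792 bases. In heart it had 136 RPKM (881 reads), in colon 1.68 (6 reads) and in kidney 0.166 (1 read). The other libraries had 0 reads, where 3 reads would give 0.356 RPKM in brain, 0.490 in lung and 0.495 in small intestine. Heart was 80.8 times the colon-labelled library, with a wide interval of 37.0 to 221 from those 6 reads, and the colon interval (0.617 to 3.66 RPKM) overlapped that of kidney but lay above those of the 3 libraries at 0, whose upper bounds were 0.438 to 0.609 RPKM.

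Ldb3 (Cypher or ZASP), a PDZ and LIM protein that binds α-actinin, was the mRNA of the 9 least confined to the heart-labelled library. The gene is at chr14:34248056-34312351 with a CDS of 2169 bases. It had 179.8 RPKM in heart (3191 reads), 38.8 in brain (896), 8.47 in lung (142), 3.28 in kidney (54), 2.15 in colon (21) and 0.181 in small intestine (3). The brain-labelled library therefore stood at 21.6% of the heart level, a ratio of 4.63 (4.30 to 4.99), while the other 8 mRNAs had at most 1.64 RPKM there. With the median length of its annotated coding forms, 981 bases, in place of the longest, the density of Ldb3 in heart would be 398 RPKM. The 5 smooth muscle markers (Myh11, Acta2, Actg2, Tagln and Cnn1) all had reads in this library and summed to 3207 RPKM, and in the kidney-labelled library, where Ldb3 was at 3.28 RPKM, they summed to 4417 RPKM. Of the 7 skeletal muscle fibre markers, 5 were at 0 in the brain-labelled library and the sum was 0.0484 RPKM. The part of any of these cells in the Ldb3 level was not tested.

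Nebl encodes nebulette, the cardiac member of the nebulin family at the Z-disc, and a shorter LIM-domain form known from non-muscle cells. It lies at chr2:17347467-17736275 and its listed CDS has 3042 bases. It had 156.8 RPKM in heart (3904 reads), 22.6 in lung (532), 5.50 in small intestine (128), 2.70 in colon (37), 1.05 in brain (34) and 0.303 in kidney (7). The intervals of all neighbours in this order were apart. Heart was 6.93 times the lung-labelled library (6.33 to 7.60), which stood at 14.4% of the heart level, and 28.5 times the next one without that library. Counting was on 1 mRNA for each gene, so reads of exons shared by the 17 annotated complete coding forms of Nebl, from 360 to 3042 bases, cannot be told apart.

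The 2 myomesins of the M-band differed in their lower libraries. Myom1 (chr17:71309628-71434802, CDS of 5001 bases) had 115 RPKM in heart (4700 reads), 3.38 in kidney (128), 1.64 in brain (87), 1.29 in lung (50), 0.666 in colon (15) and 0.549 in small intestine (21). Myom2 (chr8:15107272-15183541, 4389 bases) had 158 RPKM in heart (5686 reads), 1.47 in colon (29), 1.39 in lung (47), 0.536 in small intestine (18) and 0.300 in kidney (10), and was not listed in the brain-labelled library, where 3 reads would give 0.0643 RPKM. Heart was 34.0 times the next library for Myom1 (28.5 to 40.9) and 108 times for Myom2 (75.1 to 161). The kidney-labelled library, with the highest smooth muscle markers, was thus next after heart for Myom1 and apart from the others, while its Myom2 interval overlapped that of small intestine. From brain downwards, neighbours in the Myom1 order overlapped, as did colon and lung for Myom2. The part of smooth muscle in the Myom1 level was not tested.

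The order of the members depended on whether reads or density was read, because their CDSs differ by up to 212-fold in length. In the heart-labelled library the 9 mRNAs took 89805 reads, or 1.10% of all reads (1.09% to 1.10%), and 0.659% of the summed RPKM. Titin held 39.8% of the reads of the 9 but 0.650% of their summed RPKM. The 6 Z-disc mRNAs held 48.6% of the reads and 95.04% of the summed RPKM, and the 2 myomesins 11.6% and 4.31%. In this library 1 RPKM corresponded to 869 reads on titin and to 4.10 reads on Tcap.

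**Figure D2:**
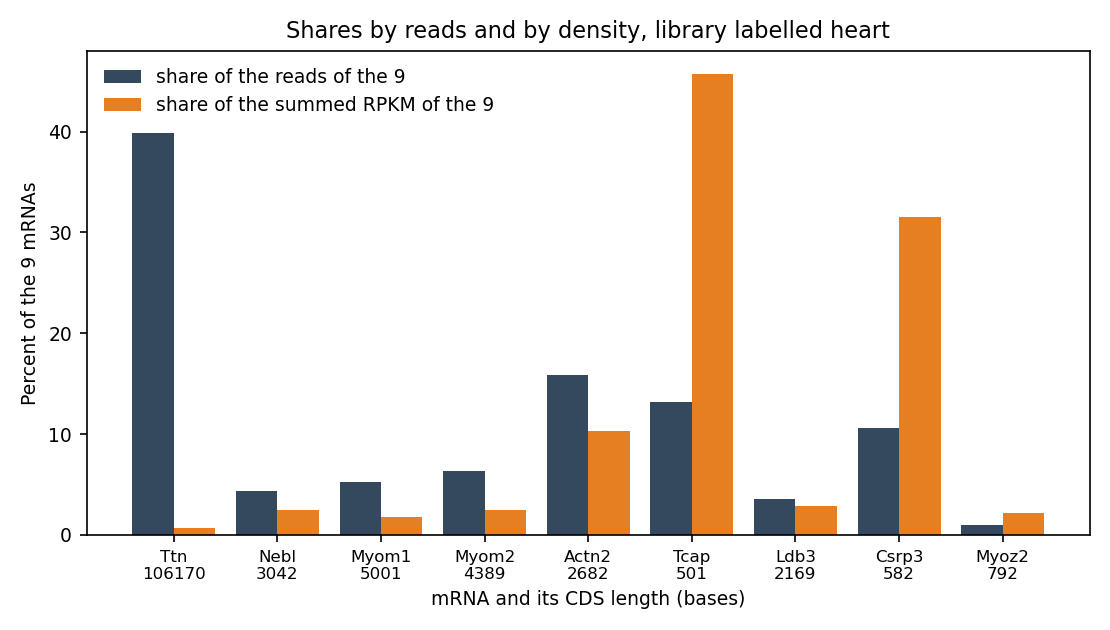
Share of the reads (dark bars) and of the summed RPKM (orange bars) of the 9 mRNAs that each took in the heart-labelled library, in percent, with the CDS length in bases under each name. Titin takes 39.8% by reads and 0.650% by density, while the short Tcap and Csrp3 hold most of the density.

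Per kb of CDS, titin was the sparsest of the 9 in heart. Relative to titin, the density was 70.3 times as high on Tcap (68.9 to 71.8), 48.5 times on Csrp3, 15.8 times on Actn2, 4.37 times on Ldb3, 3.84 times on Myom2, 3.81 times on Nebl, 3.30 times on Myoz2 and 2.79 times on Myom1 (2.70 to 2.88). These ratios take the longest annotated CDS of titin. With its median form, 80814 bases, titin would be at 54.1 RPKM, and each ratio would be lower if the other lengths were kept. By reads, titin instead came first, and each of the 8 had fewer than titin, from 0.0246 times as many on Myoz2 to 0.399 times on Actn2. Among those 8, Actn2, Tcap and Csrp3 had the most reads as well as the highest densities.

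Titin was 22nd among all mRNAs by reads in heart and 2139th by density. Its neighbours by reads were Gsn, encoding gelsolin, with 36190 reads and 1890.0 RPKM, and Col3a1, a fibrillar collagen chain, with 33309 reads and 927 RPKM. By density, its neighbours Mtm1 and Ccar1 had only 610 and 1158 reads. Tcap ranked 38th by density, Csrp3 58th and Actn2 191st, and the other members lay between rank 637 (Ldb3) and 939 (Myom1). The 3 mRNAs with the most reads were Tpm1 (tropomyosin, 340961 reads), Myh6 (α-myosin heavy chain, 314778) and Atp2a2 (the SERCA2 calcium pump, 282729), and titin had 0.437% of all reads against 4.17% for Tpm1.

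**Figure D3:**
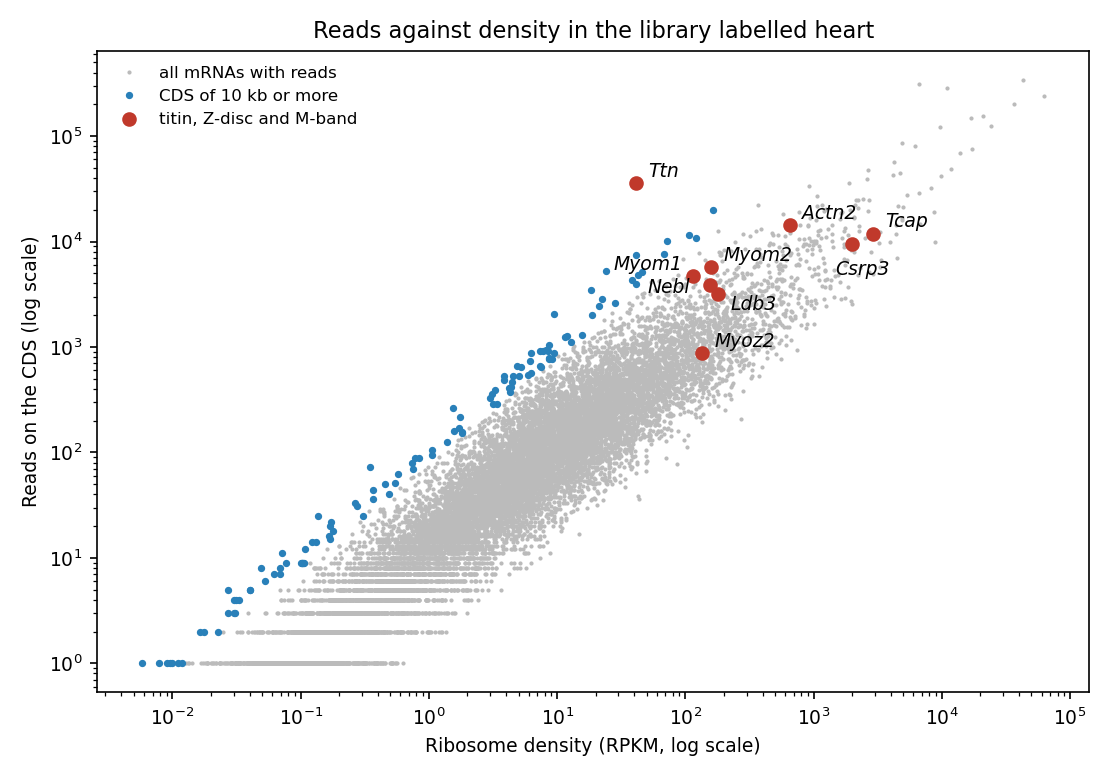
Reads on the CDS against ribosome density for each mRNA with reads in the heart-labelled library, both on log scales; blue points have a CDS of 10 kb or more and red points are the 9 mRNAs. Titin, at 35778 reads and 41.2 RPKM, has the most reads of the long CDSs, and Tcap has 11870 reads at 2895 RPKM.

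The titin share was set against other long CDSs. Of the 18437 mRNAs, 120 had a CDS of at least 10 kb, and in heart 115 of these had reads, together 2.06% of all reads and 0.122% of the summed RPKM. Titin alone took 21.2% of their reads and was the one with the most. In the other 5 libraries long CDSs took between 1.26% and 5.38% of the reads, but the one with the most reads was Muc2, a gel-forming mucin, in brain and kidney, the endocytic receptor Lrp2 in colon, Ahnak in lung and Lrp1 in small intestine. There, titin took between 0.0296% and 0.363% of the reads on long CDSs.

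Among the longest CDSs besides titin, Syne1, a nuclear envelope protein, had 9.43 RPKM in heart and between 3.23 and 13.6 RPKM in the others, and Dst, a cytoskeletal linker, 18.3 RPKM in heart and between 4.97 and 14.7 in the others. The mucin Muc16 was highest in lung, at 1.08 RPKM. None of these 3 reached a heart level 10-fold above the other libraries, against 95.8 times for titin.

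Outside heart, the 9 mRNAs together took between 360 reads (colon) and 1331 reads (lung), or between 0.00673% and 0.0172% of a library's reads. Relative to the heart level, their median was 1.12% in the lung-labelled library, 0.926% in colon, 0.370% in small intestine, 0.249% in kidney and 0.0324% in brain. The 6 cardiomyocyte markers (Myh6, Tnnt2, Tnni3, Actc1, Mybpc3 and Ryr2), which all had reads in every library, stood at medians of 0.783% in lung, 0.764% in colon, 0.0852% in small intestine, 0.168% in kidney and 0.0302% in brain. The medians of both lists were within 1.5 times of each other in brain, colon, lung and kidney, whereas in small intestine the 9 stood 4.34 times as high. Markers of the other tissues in turn had low values in the heart-labelled library. Their sums there were 359 RPKM for lung, 83.0 for colon, 27.6 for small intestine, 12.0 for kidney and 4.30 for brain markers. Where the low levels of either kind come from was not tested.

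The libraries labelled lung and colon differed in which cardiac markers they held. In lung, the atrial or venous markers Myl4, Myl7 and Nppa had 527, 426 and 207 RPKM, Sln was at 0, and the median of the 4 was 7.41% of the heart level. The ventricular markers there stood at a median of 0.0198%, with 26.0 RPKM of Myl3, 3.43 RPKM of Myl2 and Irx4 at 0. In colon, the same medians were 0.646% for the atrial and 0.650% for the ventricular markers. Skeletal muscle fibre markers summed to 48.8 RPKM in lung, where 6 of 7 had reads and Atp2a1 was at 0, to 24.6 RPKM in heart, where all 7 had reads, and to 0.0381 RPKM in colon, where 6 were at 0. The part of these cells in the levels of the 9 was not tested.

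**Figure D4:**
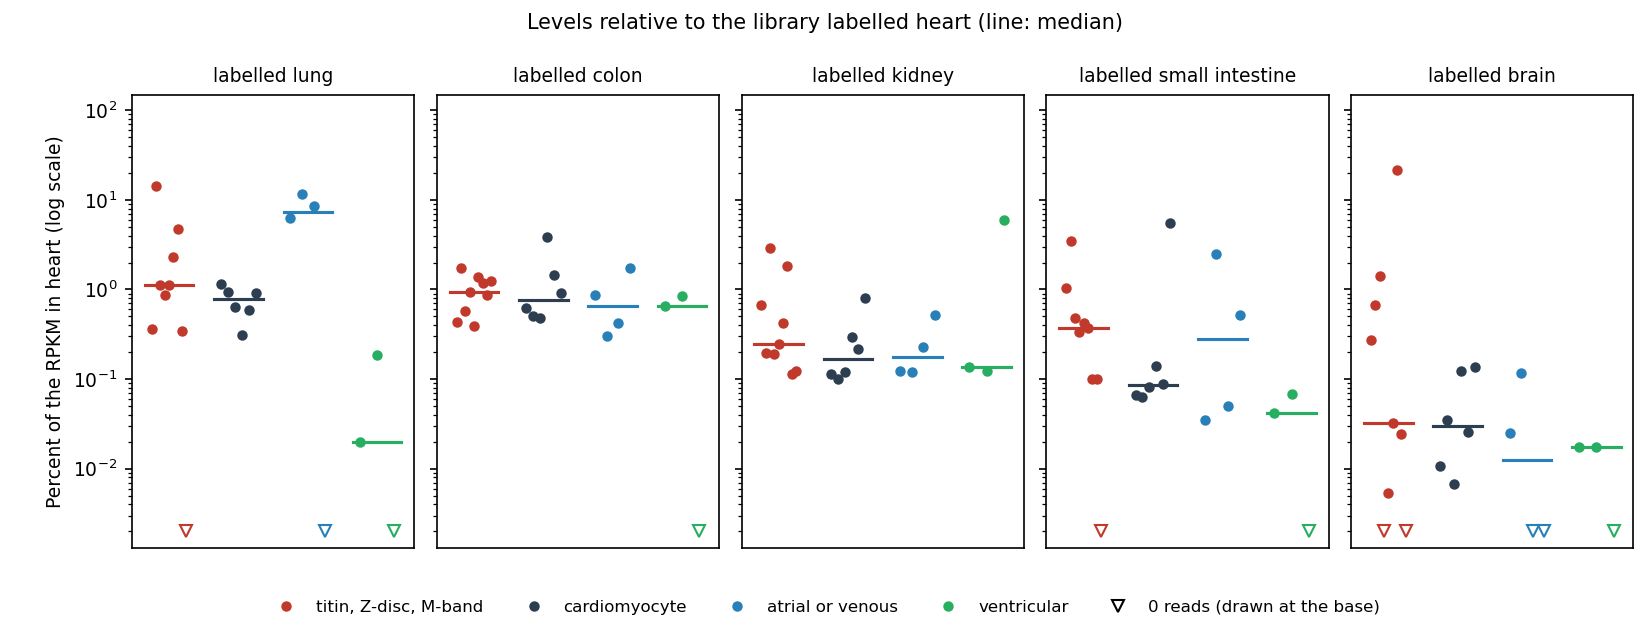
Level of each mRNA as percent of its RPKM in the heart-labelled library (log scale) in the other 5 libraries, for the 9 mRNAs (red), cardiomyocyte (dark), atrial or venous (blue) and ventricular (green) markers; lines are medians and open triangles 0 reads. In the lung-labelled library the atrial markers have a median of 7.41% and the ventricular ones 0.0198%, while in that labelled colon both lie near 0.65%.

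Without heart, none of the 8 members that reached 1 RPKM in the other 5 libraries was at least 10-fold higher in lung than in the highest of the libraries labelled brain, colon, kidney and small intestine, a ratio that 2.15% of 15006 mRNAs reached. Titin was the member left out. The largest such ratios were 4.11 for Nebl (3.38 to 5.02) and 2.67 for Actn2 (1.95 to 3.69), followed by 1.66 for Tcap (1.30 to 2.13). For Myom2, lung and colon did not differ beyond counting, with a ratio of 0.944 (0.582 to 1.56). Thus Nebl was the member that set the lung-labelled library apart most. Ldb3, Csrp3, Myom1 and Myoz2 were higher in another library, Myoz2 with 0 reads in lung against 6 in colon.

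Actn2, Csrp3, Nebl, Ldb3, Myom1 and Myom2 were compared with the paralogs of their families by density, which divides out length. No such share was taken for Ttn, Tcap and Myoz2. Actn2 made up 96.4% of the summed α-actinin density in heart and between 0.0104% and 10.3% in the other libraries, where Actn4, a non-muscle α-actinin, was the densest. Csrp3 made up 87.6% of the CSRP density in heart and at most 1.82% elsewhere. Csrp2 itself was at 266 RPKM in heart and at 1178 RPKM in the colon-labelled library. In these families, heart was the library in which the muscle member was the densest.

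Nebl made up 55.6% of the density of its family in heart, with Nrap, a nebulin-related protein of myofibril assembly, at 72.8 RPKM and Lasp1, a non-muscle LIM and SH3 protein, at 52.4 RPKM. In the other 5 libraries Lasp1 was the densest, and Nebl took between 0.153% and 10.4%. Ldb3 made up 48.1% of the PDZ-LIM density in heart, beside Pdlim5 (143 RPKM) and Pdlim1 (27.4 RPKM), and between 1.70% and 11.6% elsewhere. Myom2 held 57.9% and Myom1 42.0% of the myomesin density in heart, and Myom3 only 0.155%. Myom1 had 88.9% of it in the kidney-labelled library and all of it in that labelled brain.

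**Figure D5:**
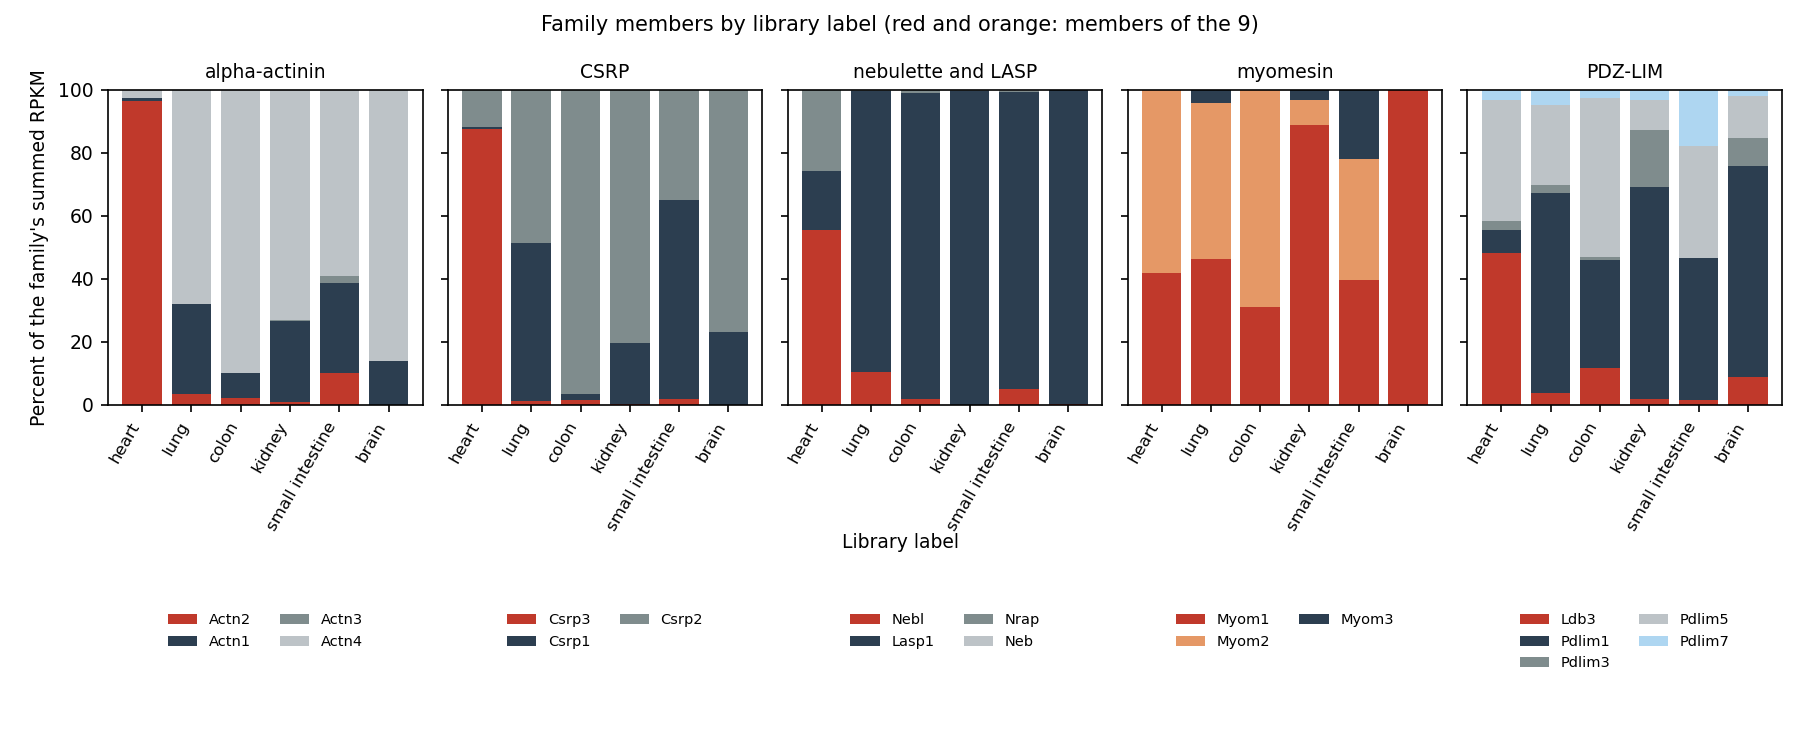
Share of each family's summed RPKM (percent) by member in the 6 libraries, named by their labels; red and orange are among the 9 mRNAs and other colours their paralogs. Actn2 and Csrp3 reach 96.4% and 87.6% in heart, whereas Nebl and Ldb3 share the density of their families with Nrap, Lasp1 and Pdlim5.

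Of the 14 paralogs listed, 10 were tested and 3 were highest in heart, among them Nrap, the 1 paralog at least 10-fold higher there. Actn1, Actn3, Actn4, Csrp1, Csrp2, Neb, Lasp1, Pdlim1 and Pdlim3 were higher in another library. The paralogs of skeletal muscle were scarce, with no read of Actn3 or Myoz3 in heart and 25 reads of Neb, the nebulin of skeletal muscle (0.135 RPKM), against 50 reads in the library labelled small intestine (0.290 RPKM). Reads of Actn3, Myoz3 and Neb were thus few in heart, which does not speak for other skeletal muscle genes.

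Other known genes of the Z-disc, I-band and M-band were also mostly highest in heart. Of 31 listed by function, 30 were found in the files, 26 reached 1 RPKM in a library, 24 of these were highest in heart and 19 were at least 10-fold higher there, with a median ratio of 41.4. Myoz1 was not analysed here. The count was 12 of 19 for Z-disc and I-band genes and 7 of 7 for M-band genes, where the background is again 1.06%. The list was drawn up from known function, as were the 9, and its count is a description.

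The densest of this list in heart were Cryab, encoding the small heat shock protein αB-crystallin (6684 RPKM), Ckm, the muscle creatine kinase found at the M-band (2225 RPKM), Des, the intermediate filament protein desmin (738 RPKM), Fhl2, a LIM protein that binds titin (671 RPKM), and Smpx (604 RPKM). Of these, Ckm was 134 times the next library, Smpx 50.8 times, Cryab 45.7 times and Fhl2 38.9 times, whereas desmin was only 4.27 times the kidney-labelled library (173 RPKM). Pdlim3, Neb, Ankrd2 and Actn3 were higher in another library, with 39.6 RPKM of Pdlim3 in the brain-labelled library against 11.4 in heart. Ldb3 and Pdlim3, which are related PDZ and LIM proteins, were thus at like density in the brain-labelled library (38.8 and 39.6 RPKM).

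The mRNAs most like the median pattern of the 9 were found by the Euclidean distance of log2(RPKM + 1) over the 6 libraries, centred on its mean, among 8137 other mRNAs with at least 500 reads. They were Trim55 (distance 0.795) and Trim54 (1.00), which encode muscle RING-finger ubiquitin ligases, Txlnb (1.07), Ankrd23 (1.09), a titin-binding ankyrin repeat protein, and Fsd2 (1.14). In heart they had between 113 RPKM (Fsd2) and 283 RPKM (Txlnb), and at most 4.12 RPKM, for Trim54 in lung, elsewhere. Ankrd23 had 1049 reads in heart and none in any other library. The members themselves lay between 0.477 (Myom2) and 4.44 (Ldb3) from this median, which they help to set.

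The study weighed codon usage of abundant mRNAs, and here titin counts differently by reads and by density. The paper set each codon relative to its synonymous codons, whereas the percentages below are plain shares over 59 codons, a different measure. Among the 1000 mRNAs with the most reads in heart, titin held 4.59% of the codons, and the share of codons ending in G or C (GC3) was 54.8% with titin and 55.3% without it. By density, titin was outside the top 1000 in every library. The GC3 of titin was 44.3%, at percentile 14.7 of the listed mRNAs, with Nebl (45.4%) and Myoz2 (46.7%) close to it. Higher values were found for Myom1 (53.3%), Csrp3 (57.7%), Myom2 (59.9%), Ldb3 (63.6%), Actn2 (72.9%) and Tcap (75.8%, percentile 94.4). The 9 mRNAs, alike in their library of highest density, thus lay far apart in GC3.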

How the data were processed

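Ribosome-protected fragments of 25 to 35 nt were made from tissue lysed with cycloheximide, per the labels. The authors trimmed reads with Cutadapt, discarded those under 15 nt, aligned them with STAR to 1 mRNA for each gene, that with the longest CDS (Ensembl GRCm39 release 107), removed multi-mapped reads and reads with over 2 mismatches, and deposited reads on the CDS as RPKM. The methods state these steps for macrophages, and they were assumed for the tissues. Tool versions are not given in the sources used here.

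RPKM times CDS length gave whole reads, within 0.01 read, for 100% of the values. Genes were named, and coordinates taken, from GENCODE M39 (GRCm39, the same build), in which 18152 of 18437 CDSs matched. Samples were grouped by the tissue label. Recovery and ratios were tested on simulated data. With 1 library per tissue, a ratio of at least 10 stood in for a test. The genes named besides the 9 were the 5 densest in heart of each list, those higher elsewhere with at least 10 reads, the 5 longest CDSs, the 5 nearest patterns and the 3 with the most reads. The values of 1 gene that this rule names are not reported here. The members, lists and rules were chosen with earlier results of these data known. The alternatives changed the scaling, the floor, the minimum density, the ratio, the libraries compared and the CDS length. The tools were scipy 1.17.1, numpy 2.4.6, pandas 2.3.3, matplotlib 3.10.9 and Python 3.11.15.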

Additional observations from a re-analysis of the deposited data

How the results depend on the processing

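The count of 7 of the 9 mRNAs at least 10-fold higher in heart stayed between 7 and 9 under the 11 alternatives, and no direction changed. The 7 kept ratios of at least 20, but the sizes moved by over 1.5 times for Ttn (29.5), Myom2 (64.6) and Myoz2 (51.1) with log2(RPKM + 1), for Actn2 (238) and Tcap (72.6) without the lung-labelled library and with size factors (139 and 68.1), and for all 7 against the median of the other 5 libraries (88.8 to 882). Nebl passed 10-fold with median-of-ratios size factors (10.8), which raise each ratio of heart to lung by 0.64 on the log2 scale, without the lung-labelled library (28.5) and against the median of the other 5 libraries (58.1), where Ldb3 also passed (54.8). The 162 mRNAs called in all became 657 against that median, 284 at a ratio of 5 and 103 at a ratio of 20. Without Kri1, the ratios of Myom1 (26.8) and Ttn (83.1) fell below their counting intervals. The median density of the 9 in heart, 158 RPKM, became 167 without mitochondrially encoded mRNAs, 176 with size factors and 237 RPKM with the median CDS length of the annotated forms, by which Ldb3 rose to 398, Nebl to 237 and Ttn to 54.1 RPKM and the titin rank by density moved from 2139 to 1727. Their share of the reads in heart, 1.10%, became 1.16% without mitochondrially encoded mRNAs, 1.11% without Kri1 and 0.663% without Ttn; these shifts follow from what was left out or divided by. The count of 0 in the lung comparison did not change under its 3 alternatives. Thinning to 4504853 reads left 7 of the 9 called, with 157 in all. No paired analysis was possible because each tissue has 1 library.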
